A study of Homo sapiens with 4 samples.

Results

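The regions described here lie in the sequenced flanks of the centromeres of 9 human chromosomes other than the acrocentric ones, in 17 windows of the hg19 genome. The windows were 1p (120 to 121.6 Mb), 1q (142.5 to 144 Mb), 2p (91 to 92.4 Mb), 2q (95.3 to 97 Mb), 4p (48 to 49.7 Mb), 4q (52.6 to 54 Mb), 5p (45 to 46.5 Mb), 5q (49.4 to 50.5 Mb), 10q (42.2 to 42.9 Mb), 16p (33 to 35.4 Mb), 16q (46.3 to 47.5 Mb), 17p (21.2 to 22.3 Mb), 17q (25.2 to 26.5 Mb), 18p (14 to 15.5 Mb), 18q (18.4 to 20 Mb), 20p (25.5 to 26.4 Mb) and 20q (29.3 to 30.5 Mb). A region was taken as a member when its midpoint fell in a window, which used its position and nothing else. The rule took 1369 of 57082 regions in all, namely 355 of the 2836 PRO peaks, 794 of the 35535 RS peaks and 220 of the 18711 DiffBind regions. The windows hold 20.6 Mb of sequence, 0.722% of the sequenced genome.

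The mark mapped was histone H4 trimethylated at lysine 20 (H4K20me3), by chromatin immunoprecipitation and sequencing (ChIP-seq) of crosslinked IMR90 cells, a normal diploid fibroblast line from human lung that was grown in low oxygen. One group was proliferating at population doubling 32 (PRO), and the other had reached population doubling 86 and had stopped dividing, the state of replicative senescence (RS). No other treatment or genotype separated the groups. Each had 2 samples, 1 with an antibody from Millipore (Ab1) and 1 with an antibody from Cell Signaling Technology (Ab2), and each entered as 1 list of the peaks that both antibodies shared. The paper reports that peaks of both antibodies overlapped far more in RS than in proliferating cells. The PRO list can therefore be short for that reason too, and how far this shaped the comparisons below was not tested. The DiffBind list holds regions that the authors called different between the groups. The paper reports that most of its differential peaks, a longer list than this one, were more enriched in RS. The list used here gives no direction for any region. There were therefore no values for single samples, no replicate error and no test between PRO and RS, and every interval below covers counting only.

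H4K20me3 is written mainly by the enzyme SUV420H2, which is brought to chromatin by HP1 proteins bound to H3K9me3, and it is a mark of constitutive heterochromatin. The sequence around human centromeres is built from satellites, which are short units repeated head to tail. Alpha satellite is the repeat of the centromere itself, and part of its units carry the CENP-B box, the binding site of the centromere protein CENP-B. Satellites II and III lie further out on some chromosomes and are built from diverged or regular copies of the pentamer CATTC.

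Satellites were recognised in stretches of 200 bp from their periodicity. A stretch counted as alpha-periodic where at least 60% of its bases equalled the base 1 alpha satellite unit away, give or take 1 bp, and as 5-bp periodic, the unit of satellites II and III, where as many equalled the base 5 bp away. CATTC and its reverse complement GAATG were counted, which finds the pentamer on both strands. The core of the CENP-B box was searched as TTCG, any 4 bases, A, any 2 bases and CGGG, also on both strands. In an even sample of stretches over the whole genome, 0.208% were alpha-periodic, 0.0357% were 5-bp periodic and 0.0140% held a CENP-B box core. The following stretches are shown on the plus strand of GRCh37, whose main chromosomes share their coordinates with hg19, with the pentamer in either orientation and the CENP-B box core in capitals, because they stand for the kinds of sequence on which the results turn. The first 3 were the stretches with the highest identity at their lag among those inside both a PRO and an RS peak, with the second chosen among those with a core. The fourth came from the longest RS peak that held neither period, lay in a DiffBind region and met no PRO peak.
alpha-periodic stretch, chr5:49439601-49439800, in PRO and RS: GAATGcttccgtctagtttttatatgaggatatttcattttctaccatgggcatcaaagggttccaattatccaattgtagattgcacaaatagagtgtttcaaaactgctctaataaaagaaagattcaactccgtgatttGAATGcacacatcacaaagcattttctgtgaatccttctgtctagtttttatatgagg
alpha-periodic stretch with a CENP-B box core, chr20:26311001-26311200, in PRO and RS: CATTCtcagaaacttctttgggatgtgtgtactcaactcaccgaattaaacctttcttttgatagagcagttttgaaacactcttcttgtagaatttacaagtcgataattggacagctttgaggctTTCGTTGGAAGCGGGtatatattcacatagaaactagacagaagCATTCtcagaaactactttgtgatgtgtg
5-bp periodic stretch, chr20:29829401-29829600, in PRO and RS: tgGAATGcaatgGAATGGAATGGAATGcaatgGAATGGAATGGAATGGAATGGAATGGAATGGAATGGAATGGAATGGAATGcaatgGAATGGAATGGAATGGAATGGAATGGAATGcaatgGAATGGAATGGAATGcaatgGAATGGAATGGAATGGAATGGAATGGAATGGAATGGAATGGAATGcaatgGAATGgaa
Stretch with neither period, chr2:95820801-95821000, in RS and DiffBind and not PRO: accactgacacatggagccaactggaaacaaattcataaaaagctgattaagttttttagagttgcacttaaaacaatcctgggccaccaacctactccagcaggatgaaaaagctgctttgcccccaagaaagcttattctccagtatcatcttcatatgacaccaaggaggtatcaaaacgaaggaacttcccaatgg

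The first stretch, on 5q, matched itself at 87.5% of bases at the distance of an alpha satellite unit and had no gene annotated on it. The second, on 20p, had an identity of 85.5% and 1 core. It was an exception in its window, as the only 1 of 254 alpha-periodic stretches there in a PRO peak. The third, on 20q, held 33 pentamers. The fourth lies in the body of ZNF514 and overlaps an exon of a non-coding transcript of that gene, with no coding sequence, and its identity at the alpha unit was 27.0%. A further 3 stretches were chosen after the values were seen, from long RS peaks that are described later: the richest in pentamers of the longest peak on chromosome 16, the richest of the peak beside the gap on chromosome 10, and the 300 bp of a peak on chromosome 4 with the highest identity at a lag of 147 bp.
Long 16q peak, chr16:46403601-46403800, in PRO and RS: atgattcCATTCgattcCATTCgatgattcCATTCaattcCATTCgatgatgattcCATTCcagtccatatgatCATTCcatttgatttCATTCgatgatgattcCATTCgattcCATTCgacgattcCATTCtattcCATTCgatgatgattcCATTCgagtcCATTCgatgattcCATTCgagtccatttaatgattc
Long 10q peak, chr10:42360801-42361000, in PRO and RS: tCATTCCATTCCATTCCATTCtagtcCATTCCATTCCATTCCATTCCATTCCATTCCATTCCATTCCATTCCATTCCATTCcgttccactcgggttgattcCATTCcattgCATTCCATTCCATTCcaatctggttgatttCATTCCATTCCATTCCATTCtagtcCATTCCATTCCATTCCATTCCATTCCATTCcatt
Long 4p peak, chr4:49325201-49325500, in PRO and RS: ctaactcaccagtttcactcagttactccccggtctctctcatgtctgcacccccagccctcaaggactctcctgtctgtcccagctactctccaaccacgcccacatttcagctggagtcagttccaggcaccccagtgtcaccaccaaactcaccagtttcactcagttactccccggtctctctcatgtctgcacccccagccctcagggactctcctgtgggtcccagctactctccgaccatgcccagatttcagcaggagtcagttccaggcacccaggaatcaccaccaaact

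In both peak lists the flanks were densely covered, and the excess over other sequence was far larger in the PRO list. PRO peaks covered 692 kb or 3.35% of the sequenced bases of the windows, against 0.0965% of the rest of the nuclear genome, a density 34.7-fold higher. RS peaks covered 1594 kb or 7.72%, against 1.29%, which was 6.00-fold higher. DiffBind regions covered 595 kb or 2.88%, against 1.20%, which was 2.40-fold higher. In the PRO list the windows held 12.5% of the peaks and 20.2% of the covered bases, whereas in the RS list they held 2.23% of the peaks and 4.18% of the bases. Measured against the rest of the same 9 chromosomes, the densities were 48.1-fold higher for PRO, 7.21-fold for RS and 2.68-fold for DiffBind.

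**Figure D1:**
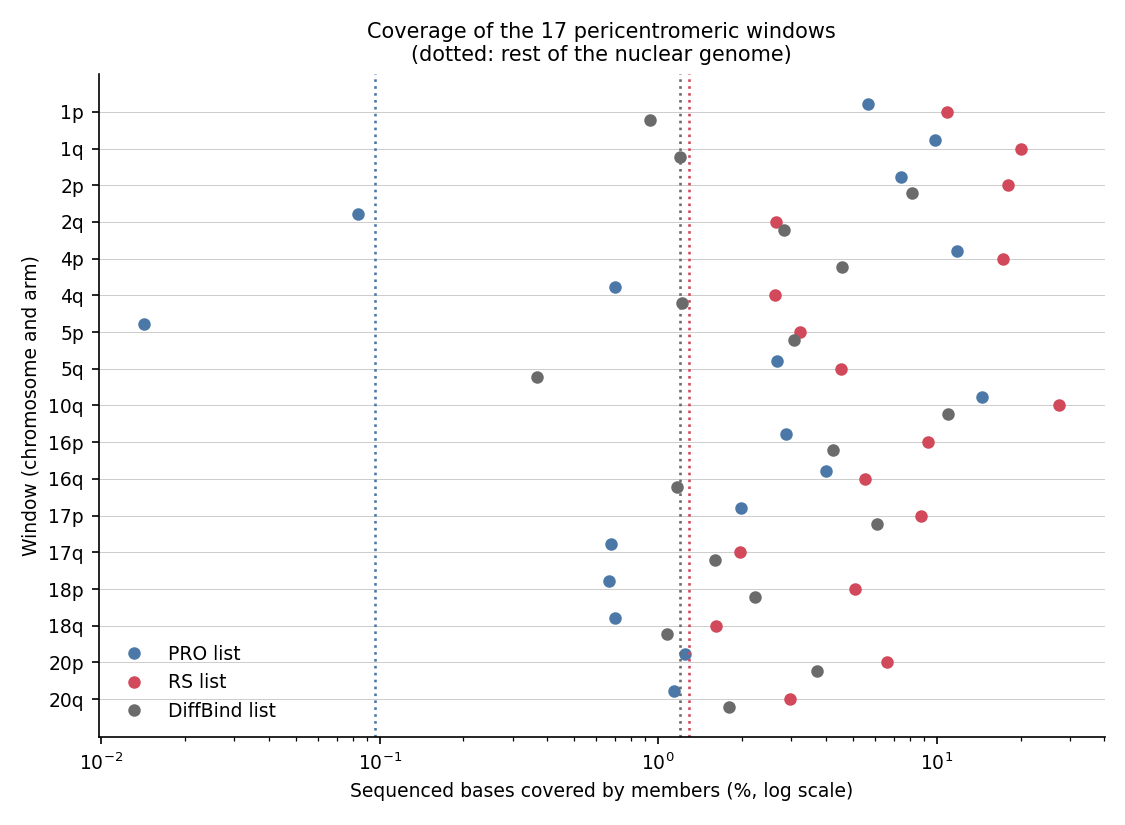
Percent of sequenced bases covered by members of each list (horizontal axis, log scale) in each of the 17 windows (vertical axis, chromosome and arm), with 1 point per list and dotted lines at the percent of the rest of the nuclear genome. RS points lie to the right of the RS line in 17 windows, PRO points to the right of the PRO line in 15, and DiffBind points to the right of the DiffBind line in 13.

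To ask how much the marked sequence differed between the states, covered lengths were compared window by window. RS peaks covered 2.30 times the length of PRO peaks in the windows, against 13.3 times in the rest of the genome and 11.1 times over the whole lists. The number of peaks gave 2.24 in the windows and 14.0 in the rest. RS covered more bases than PRO in all 17 windows, with a median ratio of 2.60. The ratio was lowest at 16q, where RS covered 61.4 kb and PRO 44.8 kb, a ratio of 1.37. It was below that of the whole lists in 15 windows. Both exceptions had almost no PRO peak: 5p, with 1 PRO peak of 201 bp and 51 RS peaks of 45.5 kb, and 2q, with 3 PRO peaks of 1.40 kb and 30 RS peaks of 44.4 kb.

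The windows fell into a broad range, from heavily marked to nearly bare in PRO. Most PRO bases lay in a few of them, since 4p, 1q, 1p and 10q held 61.1%. PRO peaks covered 14.5% of 10q (71.8 kb), 11.8% of 4p (178 kb), 9.85% of 1q (99.9 kb), 7.42% of 2p (54.2 kb) and 5.67% of 1p (72.9 kb). The same windows were also the most covered in RS, at 27.5% of 10q (136 kb), 20.1% of 1q (204 kb), 18% of 2p (131 kb), 17.3% of 4p (261 kb) and 10.9% of 1p (140 kb). At the middle of the range, PRO and RS covered 2.88% (61.4 kb) and 9.34% (200 kb) of 16p, and 1.99% (19.2 kb) and 8.79% (84.6 kb) of 17p. The least covered windows in RS were 18q at 1.61% (24.0 kb) and 17q at 1.97% (24.4 kb), and both still exceeded the rest of the genome. DiffBind bases followed another order, being largest at 16p (90.2 kb), 4p (69 kb), 2p (59.4 kb) and 17p (58.6 kb).

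**Figure D2:**
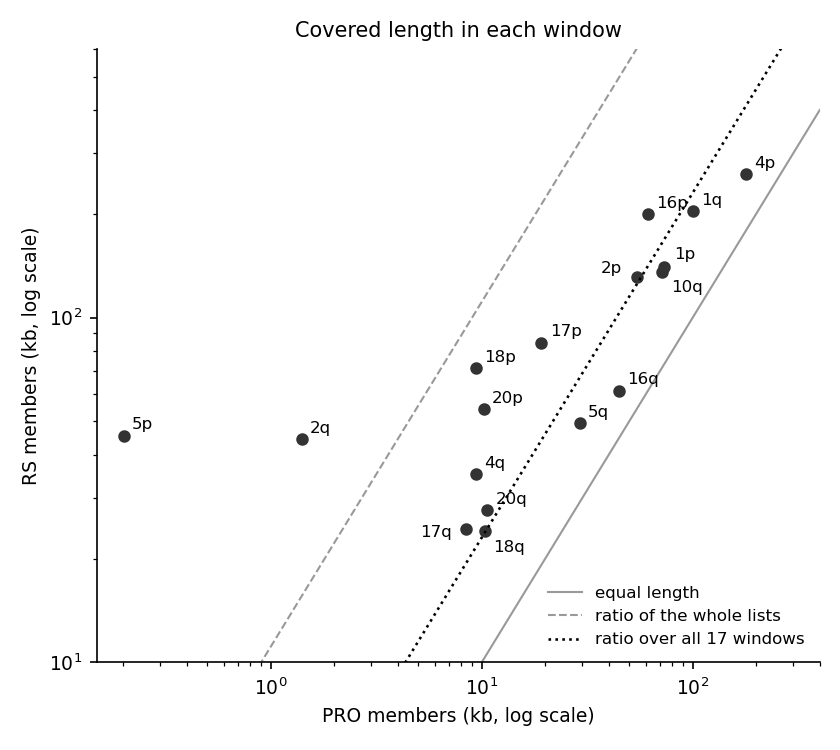
Covered length of RS peaks (vertical axis, kb, log scale) against that of PRO peaks (horizontal axis, kb, log scale), 1 point per window, with lines for equal length, for the ratio over the 17 windows (2.30) and for the ratio of the whole lists (11.1). Every point lies above the line of equal length, and 15 lie below the line of the whole lists; 5p and 2q lie above it.

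The difference in number was not found in every window. RS peaks outnumbered PRO peaks in 16 windows, and at 1p 34 RS peaks stood against 57 PRO peaks, since single RS peaks spanned many PRO peaks there. The RS peak at chr1:121360801-121405801, 45.0 kb long, held 19 PRO peaks, the most of any. In the windows 126 RS peaks met 1 PRO peak each, and 28 met at least 2 and together met 133 of them.

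Coverage by the peak lists was highest beside the unsequenced centromere gap, whereas that by DiffBind regions was highest further out. Within 250 kb of the gap PRO peaks covered 9.31% of sequenced bases, with a peak on 17 of 17 sides, and RS peaks covered 17.4%. From 250 to 500 kb the values were 3.26% and 8.35%, and from 750 to 1000 kb they were 0.558% and 3.22%. PRO peaks were found on 11 sides from 250 to 500 kb, on 5 from 500 to 750 kb and on 2 from 750 to 1000 kb. The ratio of RS to PRO length was 1.87 within 250 kb, 2.56 from 250 to 500 kb, 2.44 from 500 to 750 kb, 5.77 from 750 to 1000 kb and 18.6 from 1000 to 1250 kb. It did not keep rising further out, since it was 2.92 from 1250 to 1500 kb, 45.9 from 1500 to 1750 kb and 3.28 from 1750 to 2000 kb, where bins held 1.20 to 40.2 kb of PRO peaks. DiffBind regions were sparsest beside the gap among the bins out to 1000 kb, at 1.88% within 250 kb, and covered most at 500 to 750 kb, at 4.82%. That maximum includes the 4p and 2p tracts described later, which lie 502 and 710 kb from the gap.

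**Figure D3:**
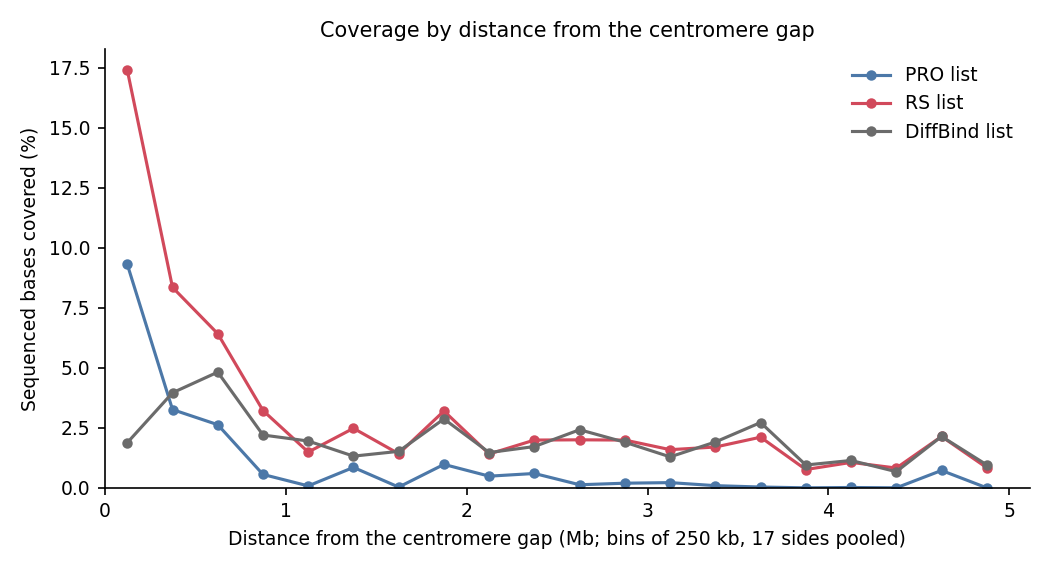
Percent of sequenced bases covered by each list (vertical axis) against distance from the centromere gap (horizontal axis, Mb, bins of 250 kb, 17 sides pooled out to 5 Mb). PRO and RS are highest in the first bin, at 9.31% and 17.4%, whereas DiffBind is highest in the third, at 4.82%.

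Peaks of the flanks were longer than peaks elsewhere, and a few very long domains held a large part of their bases. The median length was 801 bp for PRO peaks in the windows and 601 bp in the rest, 1001 and 801 bp for RS peaks, and 1801 and 1601 bp for DiffBind regions. The means were 1949 bp (SD 4026, n = 355) for PRO peaks and 2008 bp (SD 4753, n = 794) for RS peaks, against 1106 and 1052 bp in the rest. In the RS list 19 of the 794 peaks reached 10 kb and held 32.5% of the covered bases, whereas such peaks held 2.74% of the RS bases of the rest of the genome. These 19 made up 25.0% of all 76 RS peaks of that length. In the PRO list the windows held 12 of the 39 peaks of at least 10 kb, and these held 33.5% of the PRO bases of the windows, against 19.9% in the rest. In the DiffBind list 5 of 220 regions in the windows were that long, 2.27% (0.742 to 5.22%) against 0.514% in the rest, and held 23.2% of the bases against 3.73%.

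To see which domains the states shared, peaks were counted as overlapping from 1 shared base. Of the 355 PRO peaks in the windows 254 overlapped an RS peak, 71.5% (exact Clopper-Pearson 95% interval 66.5 to 76.2%), against 54.8% of all PRO peaks, and 219 lay wholly inside one. When 50% of both regions had to be shared, the values were 26.5% (22 to 31.4%) in the windows and 24.3% in the rest, which lies inside that interval. By length 86.5% of the PRO bases in the windows lay inside RS peaks, against 65.6% in the rest of the genome. The PRO peaks that met no RS peak numbered 101 and were short, with 71.3 kb in all. Seen from the other side, 154 of 794 RS peaks overlapped a PRO peak, 19.4% (16.7 to 22.3%), against 3.84% of all RS peaks. These 154 peaks covered 789 kb, of which 75.8% was already inside PRO peaks, and the other 640 covered 805 kb, or 50.5% of the RS bases in the windows. Their median lengths were 1601 bp with a PRO peak and 1001 bp without. RS peaks that met a PRO peak were thus about as long in sum as those that met none. By base, however, 598 kb or 37.5% of the RS bases in the windows lay inside PRO peaks, against 4.91% in the rest of the genome.

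The overlap of PRO peaks varied by window. It was 98.2% at 1p (56 of 57 peaks) and 100% at 4q and 5q, but 55.8% at 1q (53 of 95), 25.0% at 20q and 14.3% at 18p. At 1q alone 42 PRO peaks had no RS peak. With every region dropped that held a 75-base window found more than once in the assembly, 28 of 73 PRO peaks overlapped an RS peak, 38.4% (27.2 to 50.5%), an interval that holds the 42.9% of the rest of the genome under the same choice.

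DiffBind regions covered the flanks differently from the peak lists. Of the 794 RS peaks in the windows 183 overlapped a DiffBind region, 23% (20.2 to 26.1%), against 44.8% of all RS peaks, and by length 21.1% against 48.8% in the rest. When 50% of both regions had to be shared, it was 12.1% against 28.5% in the rest. Without the windows of chromosome 1, where 2.22% of the RS peaks of 1q overlapped a DiffBind region, the share was 28.2%. Of the 220 DiffBind regions 153 overlapped an RS peak, 69.5% (63.0 to 75.6%), against 73.4% of the whole list, and 43.6% against 53.5% in the rest when 50% of both had to be shared. A PRO peak was met by 19 of them, 8.64%, against 1.38% of all, and 15 of these met a PRO peak and no RS peak, 6.82% against 0.406% in the rest. Neither list was met by 52 regions, 23.6%, against 26.1% of all. Of the PRO peaks 37 overlapped a DiffBind region, 10.4%, against 11.4% of all.

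The lists together sorted the RS peaks of the flanks into 4 kinds. The largest kind by number, 461 peaks with 556 kb, met neither a PRO peak nor a DiffBind region, 58.1% (54.5 to 61.5%) against 51.8% of all RS peaks. The largest by length, 150 peaks with 702 kb and a median of 1601 bp, met a PRO peak and no DiffBind region, 18.9% against 3.35% of all. A DiffBind region and no PRO peak were met by 179 peaks with 249 kb, 22.5% against 44.3%, and both by 4 peaks with 86.8 kb, 0.504% against 0.487%, of which 1 peak on 4p held 65.4 kb.

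Satellite sequence made up much of the marked sequence. Of the 200-bp stretches inside PRO peaks of the windows 19.2% were alpha-periodic and 19.4% were 5-bp periodic, against 3.52% and 0.242% of the stretches of the windows outside all 3 lists. Inside RS peaks the shares were 16.2% and 10.9%, and inside DiffBind regions 5.25% and 15.5%. In stretches shared by PRO and RS peaks the shares were 22% and 22.4%. In RS peaks outside PRO peaks the shares were 12.8% and 4.04%, and in PRO peaks outside RS peaks 1.28% and 0%. Elsewhere in the genome 5.16% of the stretches in PRO peaks and 1.63% of those in RS peaks were alpha-periodic.

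Whole peaks followed the same division. Of the 355 PRO peaks 79 were alpha-periodic over at least 50% of their stretches, and 78 of these overlapped an RS peak. All 30 PRO peaks that were mostly 5-bp periodic overlapped one. Of the 246 PRO peaks that were mostly neither, 146 overlapped an RS peak, 59.3%. Peaks that were mostly satellite held 45.0% of the PRO bases, 32.4% of the RS bases and 20.2% of the DiffBind bases. The remainder, and the greater part of the RS bases, was sequence of neither period: 687 RS peaks with 1078 kb, with 26.7% of it inside the PRO list and 21.6% inside the DiffBind list.

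**Figure D4:**
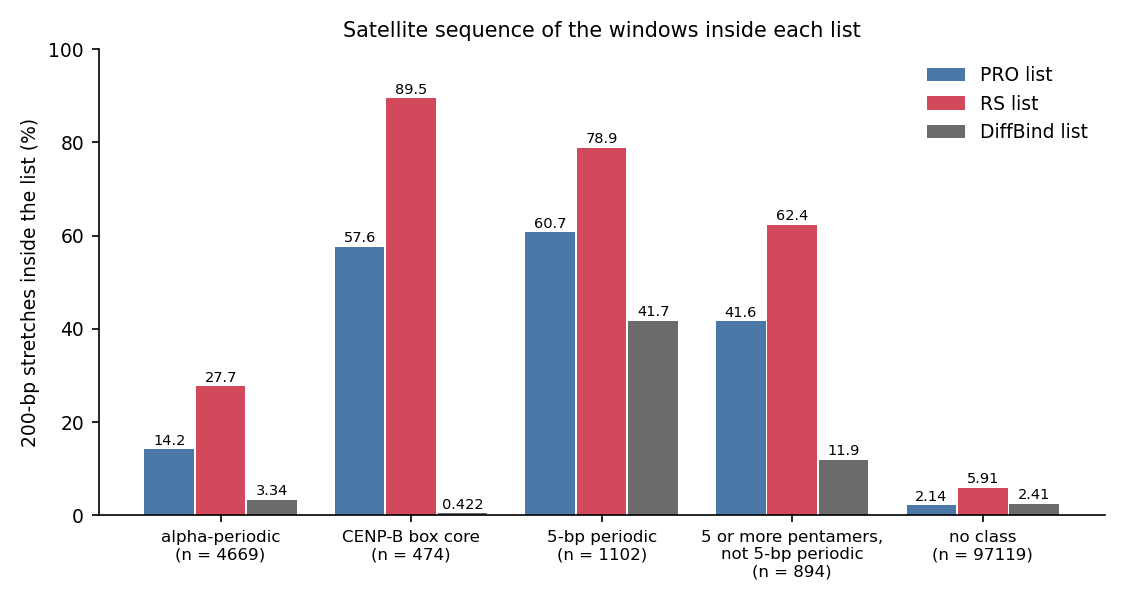
Percent of 200-bp stretches of the windows that lie inside each list (bars, from 0), by kind of sequence, with the number of stretches under each group. Stretches with a CENP-B box core were nearly all in RS peaks (89.5%) and nearly never in DiffBind regions (0.422%), whereas 5-bp periodic stretches were in RS peaks at 78.9% and in DiffBind regions at 41.7%.

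Sequence with the period of alpha satellite was marked unevenly among windows. The windows held 4669 alpha-periodic stretches, of which the PRO list held 14.2%, the RS list 27.7% and the DiffBind list 3.34%. Of stretches with no recognised period the shares were 2.14%, 5.91% and 2.41%. Of the 662 alpha-periodic stretches in PRO peaks 656 were also in RS peaks, 99.1%. Windows differed widely in these shares. At 5p, which held 1291 alpha-periodic stretches, the RS share was 8.44% and the PRO share 0.0775%, and at 16p, with 904, the RS share was 8.63%. At 2p RS peaks held 96.7% of 240 and PRO peaks 51.7%, and at 1p 94.8% and 55.7% of 348. Part of the alpha-periodic stretches of 2p lay in a diverged pentamer domain that is described later. At 5q, the window of the first sequence shown, 33.5% of 517 were in RS peaks.

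Pooled over the windows, stretches with a CENP-B box core were more often in the peak lists than alpha-periodic stretches without one. Of the stretches with a core, 260 had no recognised period. Of 474 stretches with a core, RS peaks held 424 (89.5%), PRO peaks 273 (57.6%) and DiffBind regions 2 (0.422%). Among alpha-periodic stretches the RS share was 85.5% of the 214 with a core and 24.9% of those without, and the PRO share was 52.8% and 12.3%. Every stretch with a core was in RS peaks at 4q (40 of 40), 10q (52 of 52), 17p (34 of 34) and 18q (11 of 11), and at 17p and 18q they were all in PRO peaks as well. At 1p the counts were 168 of 175 in RS and 93 in PRO, and at 2p 94 of 95 in RS and 71 in PRO. Coverage was lower at 20p, where 15 of 41 were in RS peaks and 1 in a PRO peak, at 5p, where the RS list held 6 of 17 and the PRO list 0, and at 16p, with 4 of 6 in RS and 0 in PRO. The 2 stretches of 2q and the 1 of 20q were in neither list. At 1p and 2p the core hardly changed the RS share. It was 96.0% and 98.9% of stretches with a core, and 94.8% and 96.7% of all alpha-periodic stretches. At 17p and 10q, where RS peaks held every stretch with a core, they held 24.4% and 18.2% of all alpha-periodic stretches. How much of the pooled difference lay between windows was not tested. The core marks a sequence and not the bound protein, which was not measured here. Stretches with a core also lay closer to the gap: among alpha-periodic stretches the median distance was 16.9 kb with a core and 99.2 kb without. Within 250 kb of the gap the RS share was 85.2% of the 209 with a core and 31.2% of the 3225 without, and the PRO share was 54.1% and 16.4%. The median distances there were still 16.4 kb and 64.4 kb, so this limit did not even out nearness to the gap. The part of distance in the difference was not tested.

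Pentamer satellites were densely marked in both states. Of 1102 5-bp periodic stretches PRO peaks held 60.7%, RS peaks 78.9% and DiffBind regions 41.7%. The DiffBind share came almost wholly from 2 windows, with 327 stretches on 4p and 131 on 10q. Only 2 of the 220 DiffBind regions were mostly 5-bp periodic. At 4p, with 460 stretches, 93.5% were in PRO, 100% in RS and 71.1% in DiffBind, and at 10q, with 288, the shares were 49.0%, 92.7% and 45.5%. The 20q window differed: the PRO list held 3.62% of its 138 stretches, the RS list 28.3% and the DiffBind list 0%, and the third sequence shown comes from its marked part. At 16p PRO peaks held 34.5% of 113 and RS peaks 41.6%. Periodicity misses diverged pentamers, so stretches were also counted by pentamers, a choice made after the values were seen. Of 1868 stretches with at least 5 pentamers, the PRO list held 55.7%, the RS list 76.4% and the DiffBind list 30.3%. These include stretches already counted as 5-bp periodic. Of the 894 not counted as 5-bp periodic the shares were lower, at 41.6%, 62.4% and 11.9%.

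A pair of tracts on 10q shows how the same repeat appeared in different lists. The tract at the edge of the gap, an RS peak at chr10:42354801-42397401 of 42.6 kb with 79.8 pentamers per kb, was a PRO peak over 99.5% of its length and met no DiffBind region. At 435 kb from the gap, a pair of neighbouring RS peaks (13 kb with 91.2 pentamers per kb, and 14.4 kb with 78.8 per kb) had 0% of their length in PRO peaks and 100% in a single DiffBind region of 29.2 kb. The stretch printed from the inner tract held 29 pentamers in 200 bp, and that tract overlaps no annotated gene. In the outer tract 0 to 1.54% of 75-base windows were repeated in the assembly, against 15.1% in the inner one. Copies inside the unsequenced gaps are not counted in these shares.

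The tracts of 4p did not follow that division. The longest RS peak of the flanks, chr4:49093201-49158601, was 65.4 kb of 5-bp periodic sequence with 100 pentamers per kb, 502 kb from the gap. PRO peaks already covered 95.4% of it, the longest of them 24.4 kb, and a DiffBind region with the same ends covered 100%. The tract at the gap edge, chr4:49633201-49660201, was 27.0 kb long with 94.1 pentamers per kb, and 88.2% of it lay in PRO peaks and 0% in DiffBind regions. A PRO peak and a DiffBind region were thus found on the same sequence in the outer tract, where the direction of the difference is not known from the list. The share of repeated sequence, counted as for the previous pair of tracts, was 39.4% in the outer tract and 6.72% in the tract at the gap edge. This order was the reverse of that of the previous pair. Whether repeated sequence was linked to the lists that held a tract was not tested.

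**Figure D5:**
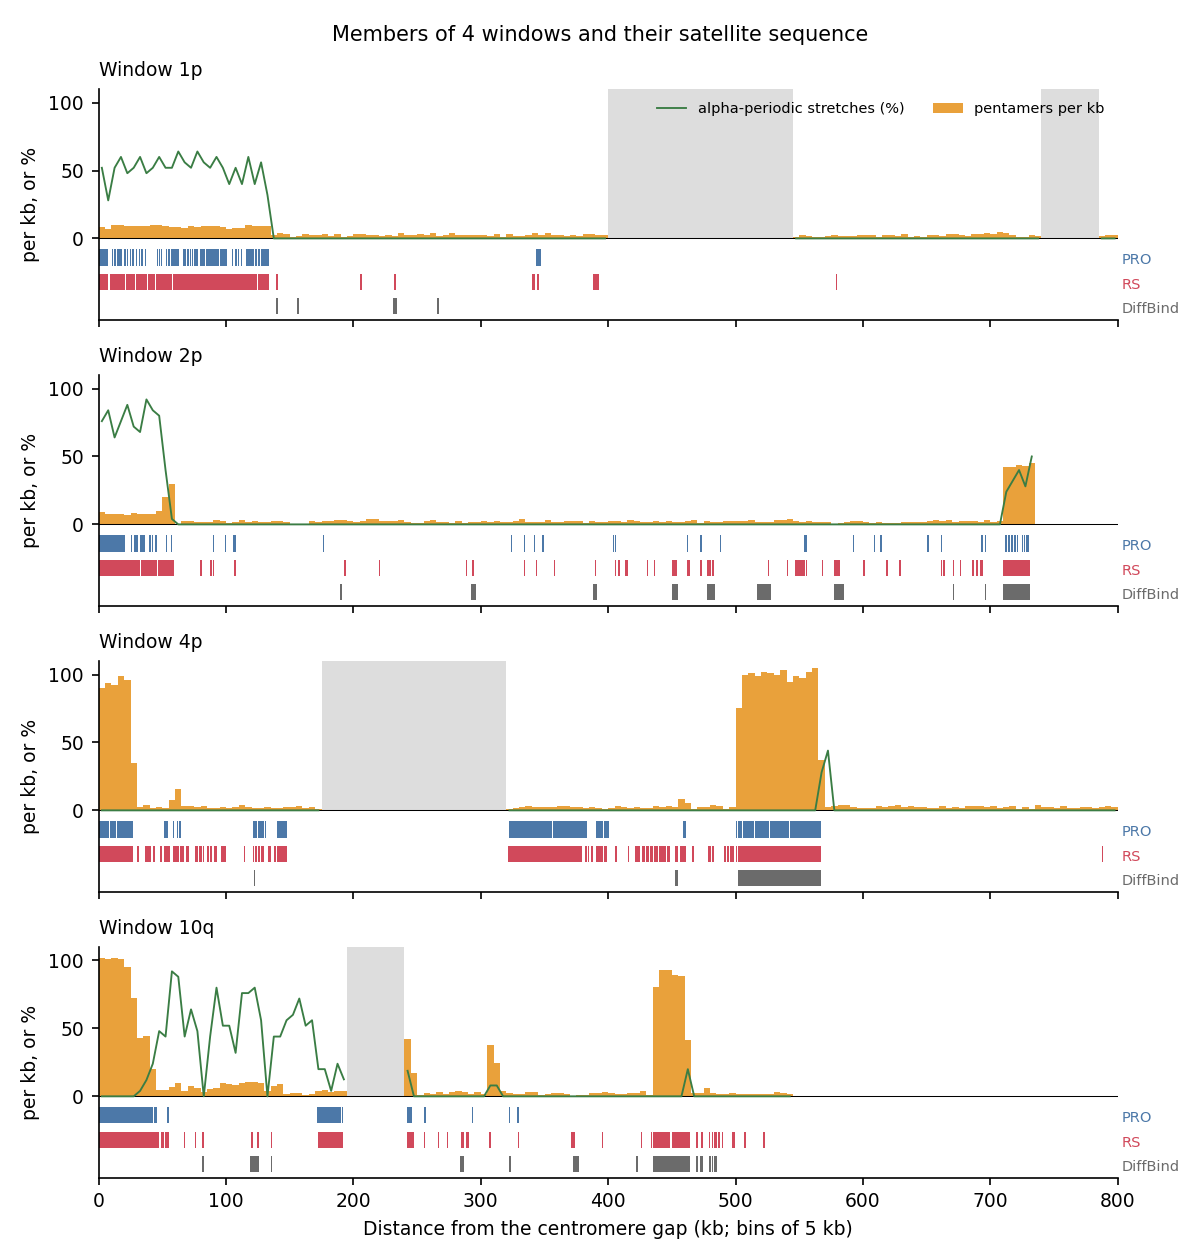
Members of each list (coloured bars below the line) in windows 1p, 2p, 4p and 10q against distance from the centromere gap (horizontal axis, kb), with pentamers per kb (orange bars) and the percent of alpha-periodic stretches (green line) in bins of 5 kb, and unsequenced stretches of the assembly in grey. RS bars cover the pentamer tracts at both ends of 4p and 10q, whereas DiffBind bars lie on the outer tracts of 2p, 4p and 10q and are absent from the sequence beside the gap.

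A diverged pentamer repeat, with a period of 49 bp, formed long domains on 16q and 2p. The 16q domain, chr16:46385801-46436001, began at the gap edge, was 50.2 kb long with 40.2 pentamers per kb and 57.3% identity at 49 bp, and 86.5% of it lay in PRO peaks and 0% in DiffBind regions. The 2p domain, chr2:91595001-91615001, lay 711 kb from the gap, was 20.0 kb long with 42.7 pentamers per kb and 59.7% identity at 49 bp, and 52.0% of it lay in PRO peaks and 100% in DiffBind regions. Of its 75-base windows 97% were repeated. The stretch printed for 16q held 14 pentamers, in irregular spacing. Because of its own internal repeats this sequence also counted in part as alpha-periodic, for 16% of the stretches of the 16q domain and 33.3% of those of the 2p domain.

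A lag of 147 bp was shared by several long peaks. RS peaks at chr4:49304401-49337801 (33.4 kb) and chr4:49280401-49304001 (23.6 kb) were most like themselves at that lag, at 37.4% and 37.5% of bases against a median of 25.7% and 25.6% over lags up to 3000 bp, and the stretch printed from the first reached 92.2%. PRO peaks covered 100% and 97.5% of them, and no DiffBind region met either. A 1q peak of 11.4 kb, chr1:143273001-143284401, had the same best lag at a lower 32.2%, against a median of 25.7%, and was in PRO peaks over 86% of its length. Their GC content of 50.3 to 52.5% was above the 39.1 to 41.2% of the longest pentamer peaks on 10q and 4p. No gene is annotated on these 3 peaks.

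Longer units were found in part of the alpha satellite domains. The best lag was 2214 bp in the 36.6-kb peak of 5q (76.7% identity), 2379 bp in the 18.6-kb peak of 17p (71.3%) and 1866 bp in the 45.0-kb peak of 1p (51.4%), each with an identity of 48.9 to 59.6% at the single unit. The 23.4-kb peak of 4q had its best lag at 2210 bp (49.8%). In the 32.6-kb peak of 2p and the 12.4-kb peak of 18q the single unit itself was the best lag, at 56.6% and 55.1%. Multi-unit periods are known as higher-order repeats of alpha satellite. The 1p peak held 54 stretches with a CENP-B box core and the 17p peak held 34, but the 5q peak held 0. PRO peaks covered 61.8% of the 1p peak, 97.8% of the 17p peak and 79.8% of the 5q peak, and DiffBind regions covered 0% of each.

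Across the 19 RS peaks of at least 10 kb, 17 met a PRO peak and 15 lay in PRO peaks over more than 50% of their length. DiffBind regions met 4 of the 19, the 4p, 2p and both outer 10q peaks. PRO peaks covered 77.9% of the bases of these 19 and 18.1% of the bases of shorter RS peaks, whereas DiffBind regions covered 21.7% and 20.8%. The 17.8-kb RS peak at chr16:33942401-33960201 was most like itself at 4 bp, with 36.4% identity against a median of 25.8%. It overlaps DUX4L46 and DUX4L47, pseudogenes of the DUX4 repeat family, and was in PRO peaks over 74.2% of its length.

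Reads from copies of a sequence cannot always be placed, so the share of 75-base windows found more than once in the assembly was measured beside these results. It was 4.50% over the genome, 16.3% in the windows outside all lists, 48.1% inside PRO peaks of the windows, 38.1% inside RS peaks and 23.7% inside DiffBind regions. In the rest of the genome it was 44.9% in PRO peaks, 12.8% in RS peaks and 9.16% in DiffBind regions. At least 1 such window was held by 79.4% of the PRO, 57.2% of the RS and 45.5% of the DiffBind members. With all of these dropped, RS covered 5.40 times the PRO length in the windows and 25.9 times in the rest, and the PRO and RS densities were 9.59-fold and 2.00-fold those of the rest. Copies inside the unsequenced centromere gaps could not be counted, so regions kept by this choice can still have copies there. The part of repeated sequence in the differences between windows was not tested.

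Little of the marked sequence of the flanks lay in coding genes. Of the 112 protein-coding genes that reach into the windows 2 met a PRO peak there, 23 an RS peak (20.5%, 13.5 to 29.2%) and 19 a DiffBind region (17%), against 3.97%, 21.0% and 18.3% of all 20163 coding genes with any region of the list. Coding gene bodies held 27.6% of the sequence of the windows, but 0.289% of its PRO bases, 4.47% of its RS bases and 13.8% of its DiffBind bases, against 26.2%, 34.8% and 40.3% in the rest of the genome. Pseudogenes, which are frequent in the duplicated sequence around centromeres, met RS peaks in 87 of 378 cases (23%), against 7.97% over the genome, and PRO peaks in 16 (4.23%), against 1.32%. Long non-coding RNA genes met RS peaks in 51 of 186 cases (27.4%), against 16.7%.

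Zinc finger genes encode a large family of DNA-binding proteins, many of them repressors. Of their 8 members and relatives in the windows 4 met an RS peak, an interval of 15.7 to 84.3% that holds the 20.5% of all coding genes and the 23% of pseudogenes there, and 2 met a DiffBind region and 0 a PRO peak. ZNF514 (chr2:95787832-95831413, minus strand) had RS peaks over 16.2 kb or 37.2% of its body and DiffBind regions over 42.2%. ZNF892 (chr2:95873269-95925522, plus strand) had 26.8% and 24.4%. ZNF519 on 18p had 2.93% in RS and 0% in DiffBind, and the pseudogene ZNF971P on 16p had 39.1% in RS. ZNF514 and ZNF892 held the most RS bases of the coding genes of the windows, together with ENSG00000289685, a coding model that overlaps ZNF514 and shares its peaks. They lie on 2q, where PRO covered 1.40 kb in all.

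Coding genes other than the zinc finger genes and the families described next mostly held RS peaks over small parts of their bodies, with KCNJ12 and CTAGE1 above the others. KCNJ12, an inward rectifier potassium channel (chr17:21279669-21323182, plus strand), had RS peaks over 23.4% of its body and DiffBind regions over 40.9%, of which the longest spanned 11.4 kb and part of the coding sequence. Near-identical copies of KCNJ12 are known, and 0% of the 75-base windows of that 11.4-kb region were found more than once in the assembly. Of the symbols KCNJ12 and KCNJ18, only KCNJ12 was found among the genes of the windows. A copy absent from the assembly could not be counted, so the 0% does not show that reads there came from KCNJ12 alone. CTAGE1 on 18q had RS peaks over 20.4% of its short body, 879 bp. NOTCH2, a Notch receptor, was the coding gene with peaks of both states, at 0.635% in PRO and 1.59% in RS, and MIB1, a ubiquitin ligase for Notch ligands, had 1.69% in RS and 0% in PRO. MAP2K3, a kinase of the p38 pathway, had 3.93% in RS, and KSR1, a scaffold of the RAS pathway, 0.824%. MAL, a membrane protein of lymphocytes and myelin, had a PRO peak over 2.83% of its body and no RS peak.

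Gene families duplicated around centromeres had few members in the windows, and whether the families differed was not tested. Beside the counts below, 20.5% of coding genes and 23% of pseudogenes of the windows met an RS peak. Of 6 ANKRD20A, ANKRD30 and ANKRD36 genes and pseudogenes 4 met an RS peak (22.3 to 95.7%), 2 a PRO peak and 2 a DiffBind region. ANKRD20A14P on 1q had more of its body in PRO (12.7%) than in RS (7.61%). Of 7 FRG1 and FRG2 pseudogenes only FRG1BP on 20q met any list, at 12.8% in PRO, 8.03% in RS and 30.2% in DiffBind. Of 5 TP53TG3 genes and pseudogenes on 16p 3 met an RS peak (14.7 to 94.7%), with 40.1% of TP53TG3C, 40.0% of TP53TG3E, which shares its position, and 19.7% of TP53TG3B, and 2 met a DiffBind region. TP53TG3C and TP53TG3E met the same RS bases, although the interval counts them as separate genes. POTEC on 18p had 3.87% in RS. None of 10 DEFB entries, which are genes and pseudogenes of beta defensins on 20q, met any list, which allows an RS share of up to 30.8%, and neither did the 2 NBPF and PPIAL4 entries. DEFB122 was entered more than once among the 10.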

How the data were processed

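H4K20me3 was measured by ChIP-seq in 2 samples of PRO and 2 of RS IMR90 cells. According to the methods and the submitters' processing notes, the authors aligned reads to hg19 with Bowtie2 2.1.0, called domains with SICER 1.1 in 200-bp windows against total histone H4, intersected the domains of both antibodies within each group, and ran DiffBind 1.8.3 at a false discovery rate of 0.01. The deposited files hold positions only, without counts, scores, p-values or a direction of change. The authors' texts name more than 1 count model for DiffBind, and which was used was not settled. The DiffBind list holds fewer regions than described and could be incomplete. Depth per sample was not used here, although aligned reads and the share of duplicates differ widely among the samples in the paper's read counts. How reads with several placements were treated cannot be seen from positions.

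Members were regions with a midpoint in a window of the rule. Overlap was counted from 1 base. Sequence came from GRCh37 and genes from GENCODE 44 mapped to it, where a gene counted when its body met a member. A centromere gap was the nearest run of at least 1 Mb of unknown bases. The genome sample took every 100th 200-bp stretch. A 75-base window counted as repeated when found more than once on either strand of all sequences of the assembly. Intervals are exact Clopper-Pearson at 95%. No test was run, because each group is 1 list. Named coding genes were the 20 with the most RS bases (at most 4 for each window), up to 10 with a PRO peak, and members of gene families given by symbol. Printed sequences followed the rules given with them. A gene and a sequence that these rules gave are not reported here. The members and lists were chosen with earlier results of these data known. Scripts in Python 3.11.15 (numpy 2.4.6, pandas 2.3.3, scipy 1.17.1, numba 0.67.0) were tested on simulated data. Alternatives dropped peaks of 1 base, regions under 1000 bp or regions with repeated sequence, merged regions within 1000 bp, took members by any overlap, asked for 50% overlap of both regions, or left out each chromosome.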

Additional observations from a re-analysis of the deposited data

How the results depend on the processing

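The 7 values of amount and overlap were recomputed under 15 alternatives, which gave 101 values, and 89 of them stayed within 1.5 times a ratio or inside the counting interval of a share. Of the 101 values 63 only left out a chromosome, and 1 of these moved. The rest of the 12 values that moved came from part of the 6 other alternatives. These were dropping regions with repeated sequence, asking for 50% overlap, and keeping only regions of at least 1000 bp. Dropping peaks of 1 base, taking members by any overlap and merging within 1000 bp moved no value past its limit. Dropping regions with a repeated 75-base window moved the most. The length ratio of RS to PRO was then 5.40 and the number ratio 4.66, against 25.9 and 17.9 in the rest of the genome, the density fold was 9.59 for PRO and 2.00 for RS, RS peaks were met by 38.4% of PRO peaks, and DiffBind regions by 26.8% of RS peaks. Asking for 50% of both regions gave 26.5% of PRO peaks, 12.1% of RS peaks over DiffBind and 43.6% of DiffBind regions over RS, against 24.3%, 28.5% and 53.5% in the rest. With only regions of at least 1000 bp these shares were 80.4% for PRO peaks and 50.3% for DiffBind regions, against 64.8% and 48.5% in the rest. Without chromosome 1 the share of RS peaks over DiffBind was 28.2%, and no other value moved past its limit when a chromosome was left out. The cause of these moves was not tested. Recognising alpha satellite at 50% identity, chosen after seeing the data, gave 6224 stretches with 14.5% in PRO, 26.7% in RS and 3.45% in DiffBind, close to the values at 60%. Satellite families were read from periodicity and not from a repeat annotation. No paired analysis was possible because the lists hold no values for single samples, and leaving out each replicate was not run for the same reason. Without values per sample, how firmly any single peak was called cannot be told.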
